A study of Mus musculus with 15 samples.

Results

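The Myc family and its partners comprise here 8 genes: Myc and Mycn, their dimer partner Max, the antagonists Mxd1, Mxd3, Mxd4 and Mxi1, and Mnt. All probes named for 1 of these genes, by its current or an older symbol, were taken: 16 of the 41174 distinct probes, on 25 of 43379 spots per array. A filter on dim signals left 14 of the 16 probes among 27700 tested, and every gene kept at least 1 probe. Mycn was picked because its interaction value was large, so the values of Mycn are described without a test in any comparison. The RNA came from mouse embryonic fibroblasts of the C57B6 background, taken from embryos at 13.5 days, grown to passage 3 and high confluence and kept without serum for 24 h. Wild type cells were hybridised to 4 arrays, as were the cells of each single knock-out, of p27 or of stathmin; cells lacking both genes, the double knock-out, were hybridised to 3. p27, the product of Cdkn1b, inhibits cyclin-dependent kinases, and stathmin, the product of Stmn1, destabilises microtubules. Each array set a sample in the red dye against pooled fibroblast reference RNA in the green dye, so a level is the log2 of red over green and a difference is between genotype means of such ratios. The arrays of a genotype are biological replicates by their labels, which do not say whether these were 1 litter or several, and all groups share the serum-free, confluent state.

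Myc proteins bind DNA as dimers with Max, mostly at the E-box motif, and raise the transcription of genes for ribosome production, nucleotide synthesis and metabolism. Mxd proteins, Mxi1 and Mnt compete for Max and recruit Sin3 repressor complexes to the same motif. In fibroblasts Myc is an early gene of the response to serum and is low in resting cells, Mycn is known mainly from embryonic progenitors and neural tissue, and Mxd genes other than Mxd3 are usually linked to exit from the cell cycle.

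Several facts of the arrays touch these results. Between 59.3 and 78.9% of an array's spots had a sample signal well above background. Wild type arrays 3 and 4 were nearly alike. Across genes, with 1 probe each, their log2 ratios correlated at 0.837, against -0.223 to 0.578 for the other 20 pairs within a genotype. Over the genes brighter than the median, the SD of their difference was 0.27, against 0.406 to 1.05 for those pairs. Where a result rests on wild type 3 and 4, the value with both averaged as 1 array is given too. The labels were checked on the targeted genes. A Stmn1 probe stood at 0.64 to 0.87 in wild type, -2.98 to -2.64 in stathmin knock-out and -2.82 to -2.68 in double knock-out, a clear gap, while the brighter Stmn1 probe differed by -0.41 (SE 0.29; limma, adjusted p = 0.913) between stathmin knock-out and wild type. Of 3 Cdkn1b probes, 1 passed the filter. It overlapped between genotypes, at -0.22 to 0.93 in wild type, -1.10 to 0.05 in p27 knock-out and -1.36 to 0.19 in double knock-out. A dim one, well above background on 3 arrays, stood at 0.22 to 0.36 in wild type, -0.20 to -0.10 in p27 knock-out and -0.18 to -0.08 in double knock-out. The third, well above background on 2 arrays, overlapped between genotypes and its mean was higher in p27 knock-out. It stood at -0.13 to -0.01 in wild type, -0.33 to 0.36 in p27 knock-out and -0.28 to 0.03 in double knock-out. Which probes lie in the deleted part is not given in the sources used here. All 12 listed fibroblast markers were well above background on every array, and 11 of 12 macrophage and blood markers, 5 of 8 epithelial and 7 of 12 neuronal markers were too, so transcripts known from other cell types were also measured. Xist was high on 5 arrays (wild type 1, p27 knock-out 2, stathmin knock-out 1 and 2, and double knock-out 1). Each genotype kept 1 position on the slides, and the effects of position and genotype cannot be told apart.

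RefSeq (GRCm38.p6) held upstream windows of 250 bases for 7 of the 8 genes, 9 windows in all. The Myc:Max E-box CACGTG was found, on both strands, in 1 window of Mxd4 and 1 of Mnt and occurs in 6.02% of 32851 windows of the same length. The E2F-type motif TTTNGCGC was found 3 times in the Mycn window, of which 2 matches overlap each other on opposite strands, and occurs in 1.13% of windows. The Mycn and Mxd4 stretches are printed because Mycn varied most among the members and Mxd4 holds the motif that the family itself binds. A match is a description of the letters, and the windows of Max, Mxd1, Mxd3 and Mxi1 held neither motif. Each is written 5′ to 3′ on the gene's strand, with the matched bases in capitals. The Mycn stretch lies at chr12:12941969-12942048 (minus strand) and the Mxd4 stretch at chr5:34187887-34187960 (minus strand).
Mycn: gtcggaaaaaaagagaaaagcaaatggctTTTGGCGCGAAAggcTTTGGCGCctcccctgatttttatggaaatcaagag
Mxd4: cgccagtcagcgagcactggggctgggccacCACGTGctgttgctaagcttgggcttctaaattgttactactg

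Mycn (GRCm38.p6 chromosome 12, 12936093 to 12941836), a Myc paralogue, varied most of the members, with a range of 4.53 on the log2 scale, an SD over arrays above that of 98.8% of tested probes. Its level was -0.08, 0.05, 1.28 and 1.29 on the 4 wild type arrays, -0.18, -3.24, -1.64 and -0.56 in p27 knock-out, -1.0, -1.68, -0.66 and -2.5 in stathmin knock-out, and 0.34, 0.27 and 0.95 in double knock-out. Wild type and double knock-out arrays were high, the arrays of either single knock-out were low, and neither single knock-out overlapped wild type or double knock-out. In these bulk samples fewer expressing cells and less RNA per cell cannot be told apart. Between wild type and p27 knock-out the gap was narrow, from -0.08 to -0.18. The sample signal ran from 103 to 2357 units and the reference signal from 720 to 835. In p27 knock-out the probe was well above background on 3 of 4 arrays and in the other genotypes on every array. The mean level was 0.63 ± 0.75 (SD, n = 4) for wild type against 0.52 ± 0.38 (n = 3) for double knock-out. It was -1.41 ± 1.37 (n = 4) without p27 alone and -1.46 ± 0.81 (n = 4) without stathmin alone. The differences, as description only, were -2.04 (SE 0.60) for p27 knock-out and -2.09 (SE 0.60) for stathmin knock-out against wild type, and -0.11 (SE 0.65) for double knock-out. Double knock-out stood 1.93 (SE 0.65) above p27 knock-out and 1.98 (SE 0.65) above stathmin knock-out. On each of 4 slides the difference from wild type was below 0, at -3.29 to -0.10 for p27 knock-out and -3.79 to -0.92 for stathmin knock-out. The interaction, which is the difference of both losses together from the sum of the single losses, was 4.02 (SE 0.89), the ninth largest of 18700 genes and the value that chose the gene. With wild type 3 and 4 averaged, the p27 difference was -1.82 and the interaction 3.80; without p27 knock-out 2 they were -1.43 and 3.41. Among all genes, groups did not overlap for 2.21% in p27 knock-out against wild type, 2.96% in stathmin knock-out against wild type, 6.36% in double knock-out against wild type, 3.16% against p27 knock-out and 5.34% against stathmin knock-out. Since the rule used these contrasts, nothing is read from this.

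**Figure D1:**
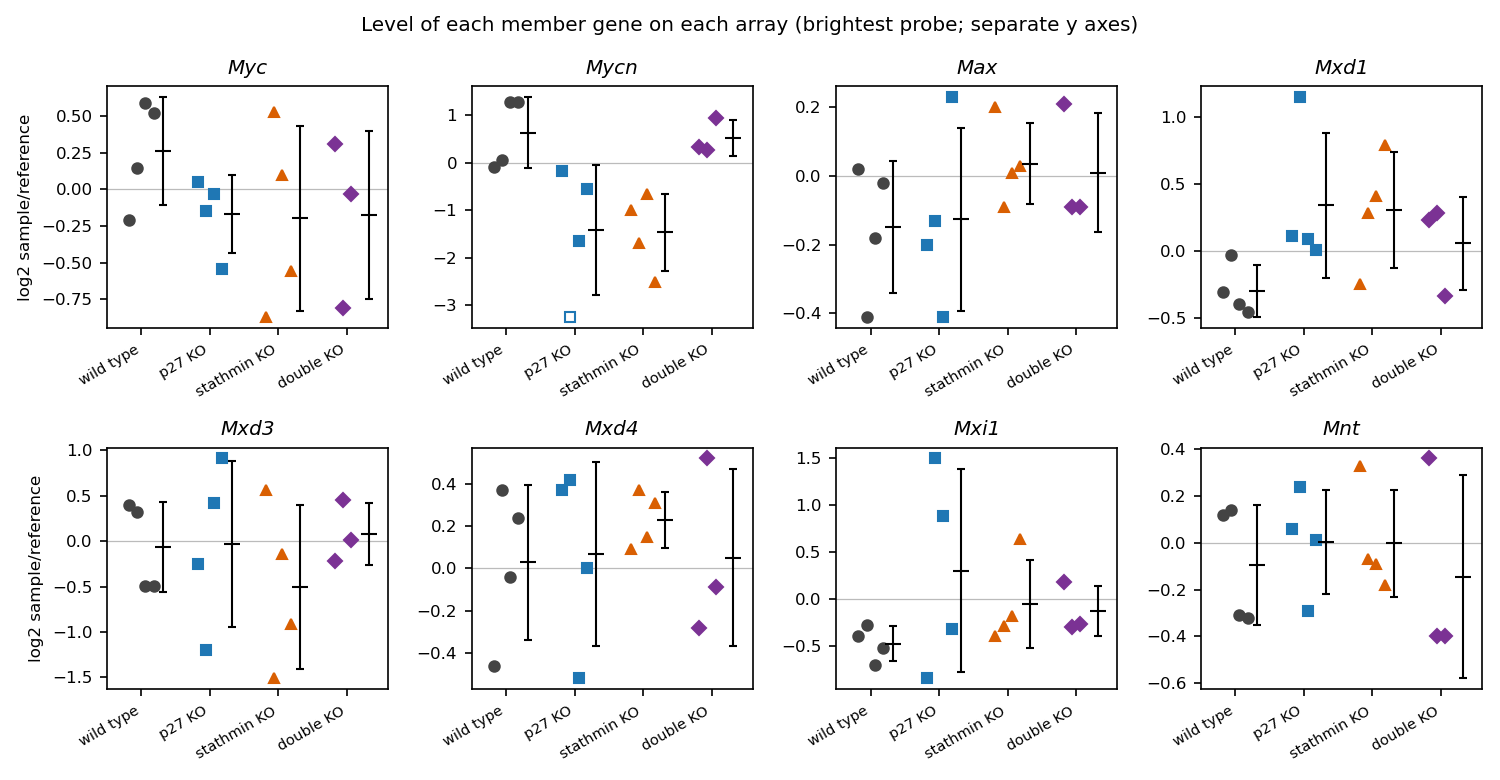
Log2 sample/reference ratio of the brightest probe of each of the 8 genes, 1 point per array, with genotype on the x axis, arrays of replicate 1 to 4 from left to right, and mean ± SD as black bars beside the points. The open square is the array not well above background for Mycn (p27 knock-out 2, -3.24), and y axes differ between panels. Mycn has both single knock-outs apart from wild type and double knock-out. It was picked for a large interaction, so nothing is read from this separation.

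A second Mycn probe, dim and below the filter, did not show the pattern. It was well above background on 8 of 15 arrays, with ratios of -0.17 to 0.14, and correlated with the bright probe at r = 0.157 over 15 arrays. Its sample signal was 112 to 259 units.

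Myc (chromosome 15, 61985341 to 61990361), the proto-oncogene of the family, was higher in wild type than in each knock-out by less than its spread. The brightest of its 3 probes read -0.21, 0.15, 0.59 and 0.52 in wild type, 0.05, -0.15, -0.03 and -0.54 in p27 knock-out, -0.87, 0.53, 0.10 and -0.56 in stathmin knock-out, and 0.31, -0.81 and -0.03 in double knock-out. The genotypes overlapped, and on this probe wild type stood high through arrays 3 and 4. On the other Myc probes wild type 2 was high too, at 0.43 and 0.47, and wild type 1 was low, at -0.35 and -0.36. The difference from wild type was -0.43 (SE 0.31) for p27 knock-out (limma, adjusted p = 0.809), -0.46 (SE 0.31) for stathmin knock-out (limma, adjusted p = 0.913) and -0.44 (SE 0.34) for double knock-out (limma, adjusted p = 1). These share the wild type arrays; with wild type 3 and 4 averaged they were -0.33, -0.36 and -0.34. The 3 Myc probes ran together: their levels correlated at r = 0.863 to 0.958 over the 15 arrays. One of them was printed on 10 spots, whose ratios on 1 array had a median SD of 0.063 and whose mean had an SD of 0.466 over all 15 arrays.

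**Figure D2:**
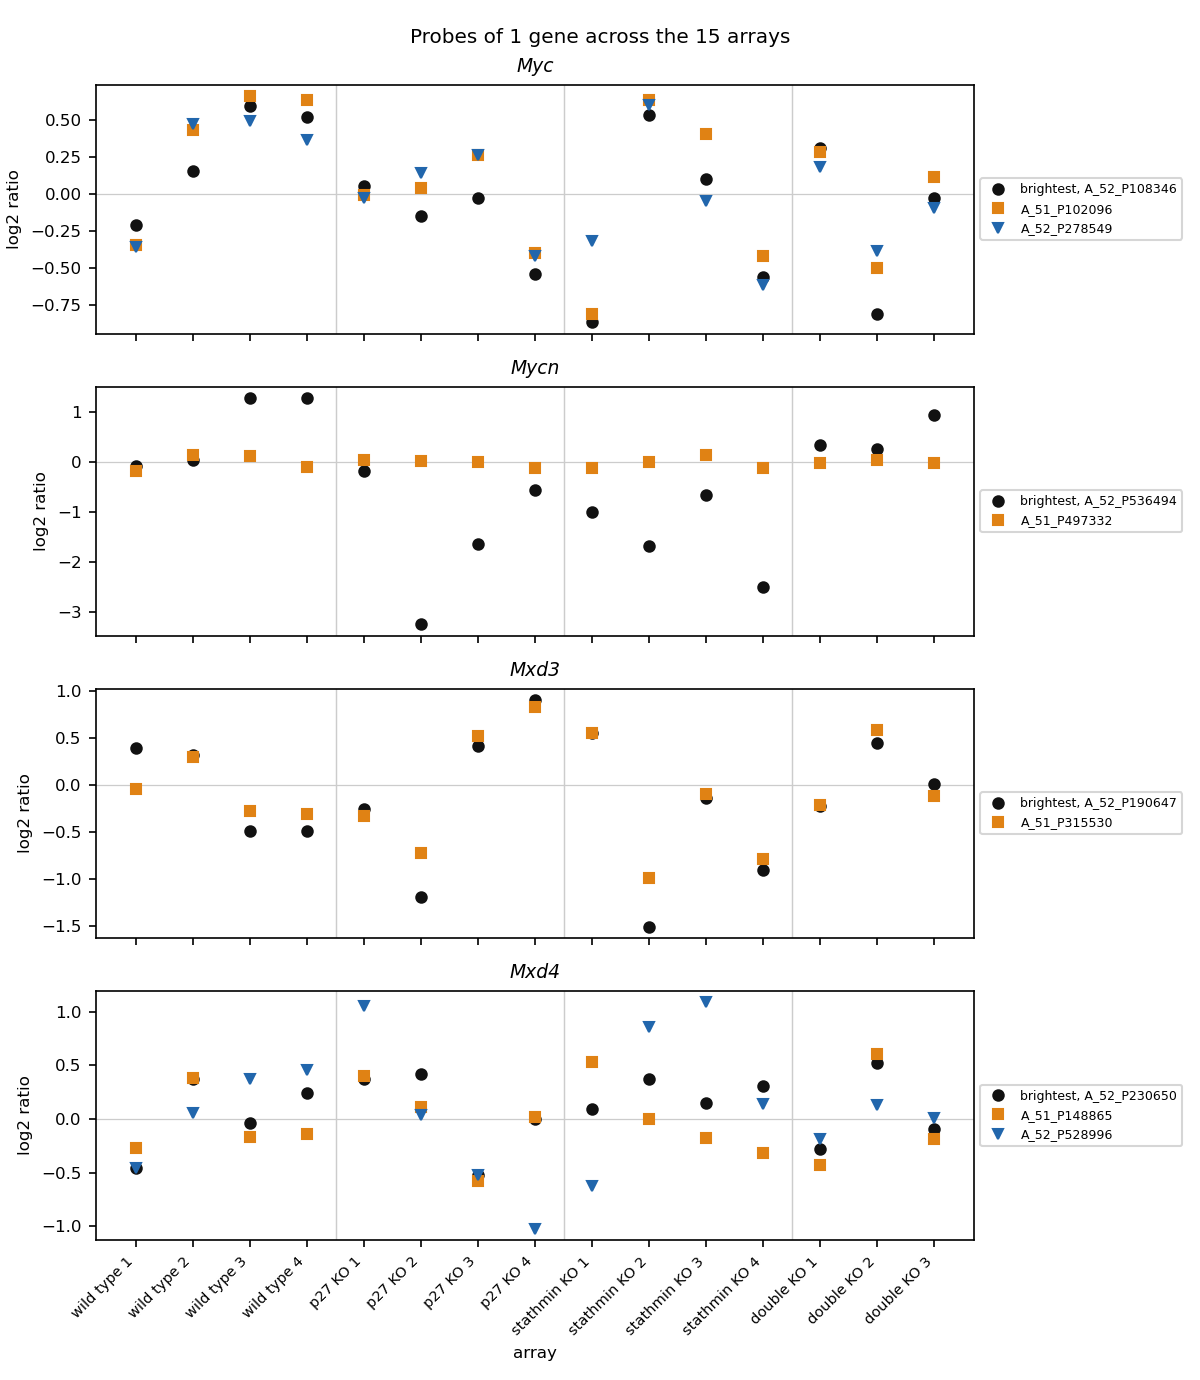
Log2 ratio of every probe of Myc, Mycn, Mxd3 and Mxd4 on each of the 15 arrays, with arrays in the same order on the x axis. The 3 Myc probes and the 2 Mxd3 probes track each other, the dim Mycn probe stays between -0.17 and 0.14 while the bright one falls to -3.24, and the third Mxd4 probe departs from the others.

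Max (chromosome 12, 76937269 to 76962323), the shared dimer partner, was the steadiest member with a range of 0.64 and an SD above that of only 17.9% of tested probes. It read 0.02, -0.41, -0.18 and -0.02 in wild type, -0.20, -0.13, -0.41 and 0.23 in p27 knock-out, 0.20, -0.09, 0.01 and 0.03 in stathmin knock-out, and 0.21, -0.09 and -0.09 in double knock-out. The genotypes overlapped throughout. The 95% interval of the p27 difference from wild type was -0.30 to 0.34 and of the stathmin difference -0.14 to 0.51. Changes within those bounds remain compatible with these data.

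Mxd1 (chromosome 6, 86647044 to 86669234), a Max-binding repressor, was the member nearest to a change. Its brightest probe read -0.31, -0.03, -0.40 and -0.46 in wild type, 0.11, 1.15, 0.09 and 0.01 in p27 knock-out, -0.25, 0.28, 0.41 and 0.79 in stathmin knock-out, and 0.23, 0.28 and -0.34 in double knock-out. The wild type arrays were the low group; p27 knock-out lay wholly above them, as 2.21% of genes did or lay wholly below, and the other knock-outs overlapped them. The difference from wild type was 0.64 (SE 0.27, 95% interval 0.06 to 1.22) for p27 knock-out (limma, adjusted p = 0.799) and 0.61 (SE 0.27, 0.02 to 1.19) for stathmin knock-out (limma, adjusted p = 0.913). Double knock-out differed by 0.36 (SE 0.29; limma, adjusted p = 1), and the interaction was -0.89 (SE 0.40, -1.74 to -0.03; limma, adjusted p = 0.676). None passed over all genes. On each of the 4 slides both single knock-outs lay above wild type on this probe. Both comparisons share the wild type arrays. Max also lay above wild type on 4 slides in stathmin knock-out, and the share of all genes that do so was not counted. The p27 difference fell to 0.37 without p27 knock-out 2, the array at 1.15, and was 0.60 (limma, adjusted p = 0.997) with wild type 3 and 4 averaged, where no Mxd1 comparison had an unadjusted p under 0.05. On the arrays with low Xist the differences were 0.37 for p27 and 0.90 for stathmin knock-out (limma, adjusted p = 0.974 and 0.467). A second, dim probe gave a p27 difference of 0.10 (SE 0.10) and a stathmin difference of 0.16 (SE 0.10). It lay above wild type on 3 of 4 slides in each single knock-out. The brightest probe is named Mxd1 through the symbol in the array's files, the dim one through a RefSeq transcript.

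Mxd3, Mxd4 and Mxi1 make up the rest of the Mxd group, and none was called. Mxd3 (chromosome 13, 55325170 to 55329900), which unlike its relatives is known from dividing cells, read -0.49 to 0.40 in wild type, -1.20 to 0.91 in p27 knock-out, -1.51 to 0.56 in stathmin knock-out and -0.22 to 0.45 in double knock-out. Stathmin knock-out 2 and p27 knock-out 2 were its lowest arrays. Its 2 probes agreed at r = 0.954, so both showed the spread among arrays. Mxd4 (chromosome 5, 34176580 to 34187710) ran from -0.52 to 0.52. Its 3 probes correlated at only 0.112 to 0.699, the lowest with the dimmest of them. That dimmest probe and the brightest one, which represents Mxd4, are both named by symbol alone. Mxi1 (chromosome 19, 53310128 to 53373293) read -0.39, -0.27, -0.70 and -0.52 in wild type, -0.84, 1.49, 0.88 and -0.32 in p27 knock-out, -0.39, -0.28, -0.18 and 0.64 in stathmin knock-out, and 0.18, -0.30 and -0.26 in double knock-out. Its high arrays were p27 knock-out 2 and 3 and stathmin knock-out 4, and the genotypes overlapped. A second Mxi1 probe, dim and below the filter, did not show this. It was well above background on 4 of 15 arrays, read -0.26 on p27 knock-out 2 and correlated with the bright probe at r = -0.363. The p27 difference of Mxi1 from wild type was 0.77 (SE 0.41; limma, adjusted p = 0.799); without p27 knock-out 2 it was 0.38, and without p27 knock-out 1, the lowest array, 1.16 (limma, adjusted p = 0.313). Mnt (chromosome 11, 74830806 to 74845725), a widely expressed antagonist, ran from -0.40 to 0.36 and its differences lay within -0.24 to 0.10.

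Across the comparisons no member passed the threshold, which is an adjusted p under 0.05 over about 18700 genes. Of the 7 members other than Mycn, 0 were called in p27 knock-out against wild type, where 0% of genes were called, and 1 had an unadjusted p under 0.05, against 5.73% of genes. In stathmin knock-out 0 of 7 were called against 0.00535% of genes, and 1 had an unadjusted p under 0.05 against 4.73%. In double knock-out against wild type, p27 knock-out and stathmin knock-out, 0 of 7 were called (0% of genes each) and 0 had an unadjusted p under 0.05 (2.32, 2.97 and 3.88% of genes in turn). In the interaction 0 of 7 were called (0% of genes), and 1 had an unadjusted p under 0.05 against 7.32%. Each unadjusted pass was Mxd1. The members' 95% intervals reached 0.32 to 1.02 to either side in the single knock-out comparisons. For Myc, Mxd1, Mxd3 and Mxi1, changes of 2-fold were inside the intervals of several comparisons.

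**Figure D3:**
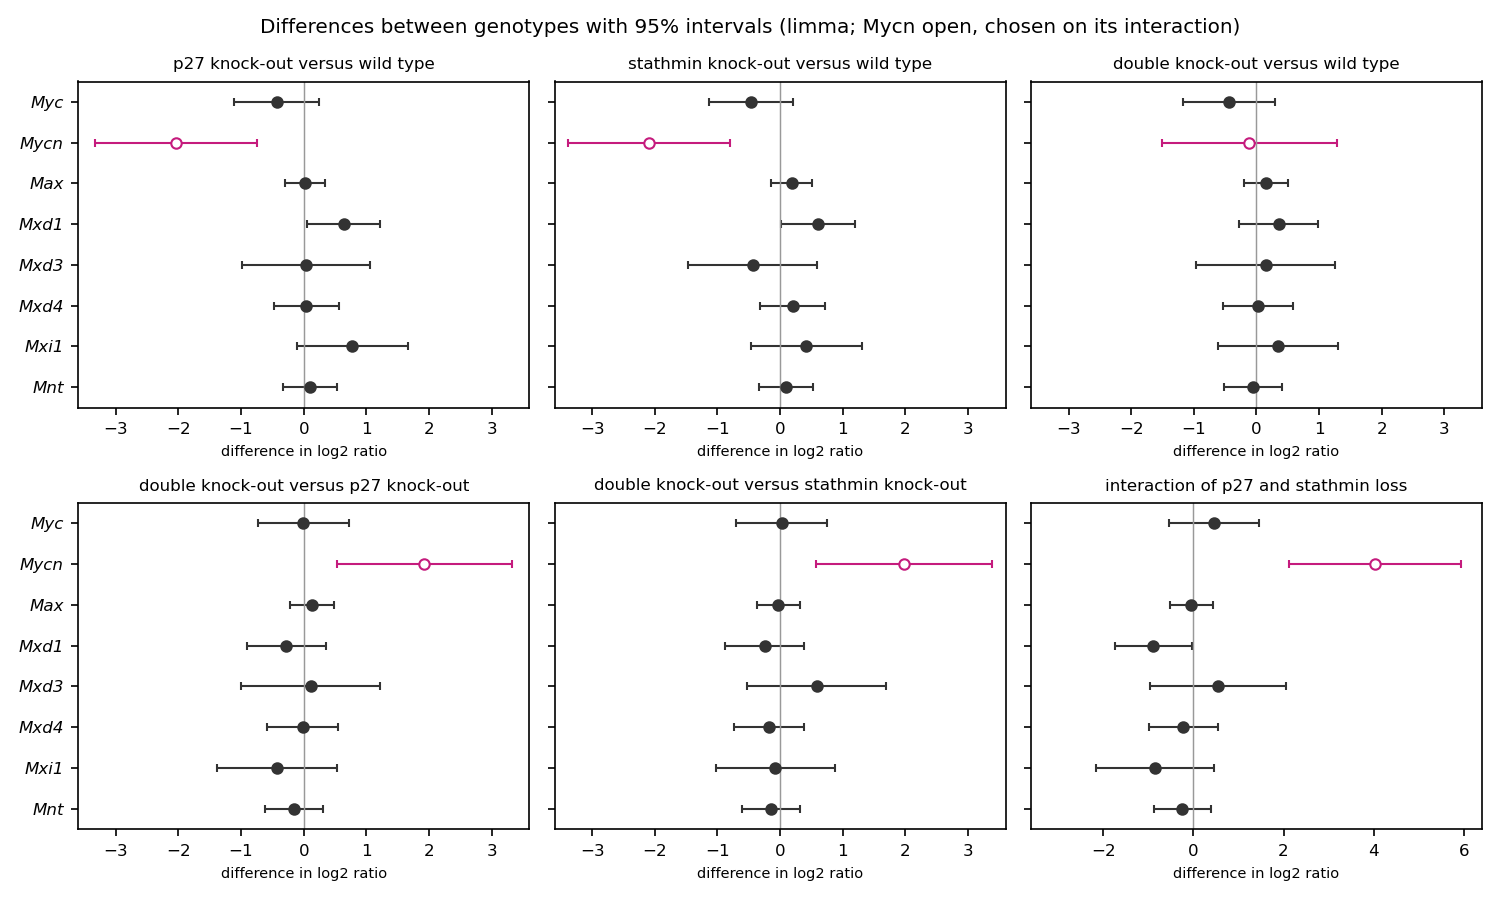
Difference in log2 ratio between genotypes (x axis) for the brightest probe of each member (y axis) in the 6 comparisons, with limma's 95% interval. Mycn is drawn open because it was chosen on its interaction (4.02), so its intervals are not read. Among the members tested, only Mxd1 has intervals that exclude 0, in p27 and stathmin knock-out against wild type and in the interaction.

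The other genes of the network were described by lists. Mycl, the third Myc paralogue, differed from wild type by -0.74 (SE 0.27) in p27 knock-out (limma, adjusted p = 0.799) and by -0.44 (SE 0.27) in stathmin knock-out (limma, adjusted p = 0.913). Mlx, Mlxip and Mlxipl, the parallel Max-like branch, and Mga, which is not of that branch, differed from wild type by -0.17 to 0.32 on their brightest probes. With Mycl, 0 of these 5 genes were called in any comparison. Of 23 cofactors such as Trrap and Sin3a, and of 20 genes of Myc turnover such as Fbxw7, 0 were called in any comparison. The turnover genes had a median of -0.20 in p27 and in stathmin knock-out against wild type, with 15 and 16 of 20 below 0, while the median of all genes was 0.01 in each. The p27 median of these genes was -0.12 without wild type 1, and the stathmin median -0.11 without wild type 4.

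Genes that Myc proteins are known to induce were mostly low in the single knock-outs, and none of 51 was called. Their median difference from wild type was -0.38 in p27 knock-out (46 of 51 below 0) and -0.26 in stathmin knock-out (46 of 51), against 52.8 and 52% of all genes above 0. In double knock-out it was -0.08 (34 of 51 below 0, where 49.3% of genes were above), and the interaction median was 0.62 (47 of 51 above 0, against 47.2% of genes). Double knock-out stood above p27 knock-out for 44 of 51 (47.6% of genes) and above stathmin knock-out for 44 of 51 (49% of genes). The size of these medians rested in part on p27 knock-out 2, whose mean over the list was -0.82 against -0.15 to 0.13 on the other p27 knock-out arrays and 0.02 to 0.31 in wild type. Without that array, left out after the data had been seen, the p27 median was -0.15 (45 of 51 below 0) and the interaction median 0.38 (45 of 51 above 0). Double knock-out then stood above p27 knock-out for 35 of 51. Without stathmin knock-out 4 it stood above stathmin knock-out for 35 of 51. The double knock-out median against wild type ran from -0.14 to -0.03 when 1 array was left out. For Npm1, a nucleolar chaperone, the p27 difference was -0.95 (SE 0.41; limma, adjusted p = 0.799) and the stathmin difference -0.95 (SE 0.41; limma, adjusted p = 0.913), while a dimmer Npm1 probe gave -0.06 and -0.14 (SE 0.23). For Odc1, which starts polyamine synthesis, they were -0.57 (SE 0.37) and -0.35 (SE 0.37), and for Cad, of pyrimidine synthesis, -0.47 (SE 0.23) and -0.42 (SE 0.23). Another Cad probe differed by 0.18 (SE 0.18) and 0.08 (SE 0.18). For Cdk4 the differences were -0.02 and 0.02 (SE 0.30). Ncl had lower means than wild type on each of its 4 probes in both single knock-outs. Ldha ran the other way in p27 knock-out, with means of 0.75 (SD 0.87) against 0.18 in wild type on 1 probe and 1.44 (SD 1.19) against 1.20 on the other. In stathmin knock-out its means were 0.35 and 0.82. Ccnd2 was lower on its 3 probes in p27 knock-out, while in stathmin knock-out 1 probe was higher, at 0.51 against 0.41. Of 14 genes known to be repressed by Myc, 0 were called; their medians were 0.32 (11 of 14 above 0), 0.38 (10 of 14) and 0.04 (8 of 14) in the 3 comparisons with wild type. The p27 median of the repressed genes ran from 0.21 to 0.51 when 1 array was left out, lowest without p27 knock-out 2. Their stathmin median was 0.24 with wild type 3 and 4 averaged, and their double knock-out median turned to -0.17 without double knock-out 1. Mean levels in wild type, p27 and stathmin knock-out were -0.69, -0.38 and -0.39 for Cdkn1a and -0.29, -0.14 and 0.05 for Cdkn2b. They were -0.54, -0.35 and 0.14 for Gadd45a and -0.20, 0.41 and -0.20 for Ndrg1.

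Lists of other processes and cell types moved beside the target lists. The proliferation list was below wild type for 11 of 13 genes in p27 knock-out (median -0.26), 13 of 13 in stathmin knock-out (-0.72) and 9 of 13 in double knock-out (-0.11). Its interaction was above 0 for 13 of 13 (median 0.90), and 0 of its genes were called. Without p27 knock-out 2, 6 of 13 were below wild type in p27 knock-out (median 0.08) and the interaction median was 0.54. The interferon list stood at -1.87 to -1.65 (mean log2 ratio) on wild type arrays, -1.69 to 1.77 in p27 knock-out, -1.76 to 1.51 in stathmin knock-out and -1.90 to 0.30 in double knock-out. The epithelial list stood at 0.09 to 0.65 in wild type -1.42 to 0.04 in p27 knock-out, -1.07 to -0.24 in stathmin knock-out and -0.76 to -0.39 in double knock-out, with every knock-out array below the wild type arrays. The macrophage and blood list stood at -1.89 to -0.45 in wild type and -2.69 to 1.83 in p27 knock-out. It stood at -1.76 to -0.82 in stathmin knock-out and -2.33 to 1.36 in double knock-out. Above wild type were 12 of 12 of its genes in p27 knock-out (median 0.94), 3 of 12 in stathmin knock-out and 11 of 12 in double knock-out. p27 knock-out 2 was its highest array, the highest of the fibroblast list (1.52) and the lowest of the muscle list (-1.17). The part of all these lists in the member and target levels was not tested.

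Members were set against list means across 14 arrays, with wild type 3 and 4 averaged; the permutation p treats these arrays as independent, which the labels do not establish, and they share 4 slides. Values within slides are over all 15 arrays, with wild type 3 and 4 kept apart. These relations were not in the design fixed for the comparisons and were chosen after the member levels had been seen. A first set of 25 used 3 lists, and it was then widened to 57 with 4 more, of which 49 had a test and those with Mycn had none. After Benjamini-Hochberg adjustment over the 49, 10 passed on Pearson's r and 0 on Spearman's rho (permutation tests, 100000 resamples, two-sided). In the first set 21 were tested and 3 passed on both, so passing depended on which relations were counted together. The largest was Mxd1 against the induced targets, with r = -0.898 and rho = -0.799 (adjusted permutation p = 0.00196 and 0.0519; in the first set 0.00084 and 0.0223). It was -0.877 within genotypes, -0.889 within slides and -0.667 without the 2 arrays farthest from the median (p27 knock-out 2 and stathmin knock-out 4). Here Mxd1 is its brightest probe, which correlated with the dim Mxd1 probe at r = 0.604 and rho = 0.479 over 15 arrays. The dim probe was not set against the list. Mxd3 against the proliferation list gave r = 0.877 and rho = 0.675 (adjusted permutation p = 0.00196 and 0.094), 0.875 within genotypes, 0.814 within slides and 0.703 without the 2 farthest arrays. Mxd4 against the same list gave r = -0.705 and rho = -0.735 (adjusted permutation p = 0.0337 and 0.0779), and -0.596 within slides. This used the brightest Mxd4 probe, named by symbol alone, which correlated with the other Mxd4 probes at only r = 0.699 and 0.526. Those probes were not set against the list, so the relation rests on 1 probe. Mxi1 against the interferon list gave r = 0.869 and rho = 0.64 (adjusted permutation p = 0.00376 and 0.0991), 0.852 within genotypes, 0.941 within slides and 0.832 without the 2 farthest arrays. Mxi1 against the induced targets gave r = -0.829 and rho = -0.561 (adjusted permutation p = 0.0156 and 0.14), -0.831 within slides, and it rested on its farthest arrays, since r was -0.445 without them. The remaining 5 that passed on r were Mxd1 with the repressed targets (0.764) and the interferon list (0.673), and Mxi1 with the repressed targets (0.699), the neuronal list (-0.714) and the epithelial list (-0.676). Mycn, as description, followed the induced targets at r = 0.892 and the repressed targets at r = -0.882. Without p27 knock-out 2 these were 0.857 and -0.827. Mycn also ran with lists that are not Myc targets. Its r was -0.691 with the interferon list (-0.825 within slides), 0.635 with the epithelial list and 0.568 with the proliferation list. It was 0.42 with the neuronal list and -0.033 with the macrophage and blood list. For Myc and the induced targets no relation passed (r = 0.174, rho = 0.196; adjusted permutation p = 0.904 and 0.926), and within slides r was 0.51.

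**Figure D4:**
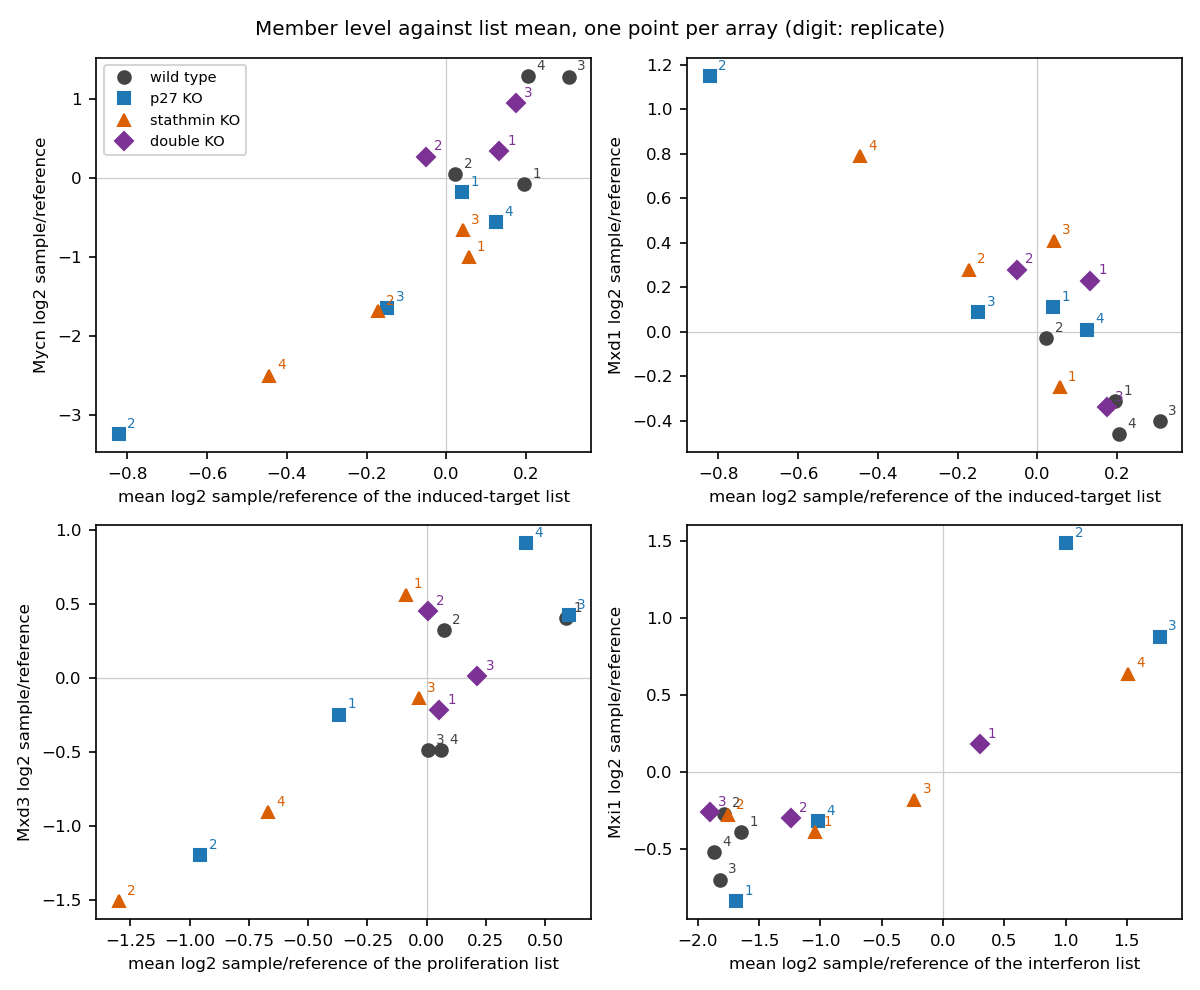
Level of Mycn and Mxd1 against the mean of 51 induced targets, of Mxd3 against 13 proliferation genes and of Mxi1 against 14 interferon genes, in log2 ratio on both axes, 1 point per array with its replicate number. Mycn is low and Mxd1 high where the induced targets are low, and p27 knock-out 2 (induced targets -0.82) lies at the end of both.

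Over 18014 genes with a value on all 15 arrays, the 5 most like Myc were Dusp10, Rnf24, Atp2a2, Sec24a and Ptgs2, with r of 0.859 to 0.881. The 5 most like Mycn were Elavl4, Lor, Fhod3, LOC382448 and Ebna1bp2, with r of 0.903 to 0.940 and, with wild type 3 and 4 averaged, 0.890 to 0.939. Levels of Myc and Mycn themselves correlated at r = 0.24 over 14 arrays.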

How the data were processed

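Spot intensities of 15 Agilent 2-colour arrays were deposited by the authors as scanner files made with Feature Extraction 9.1.3.1 without background subtraction, per the file headers. The deposited scanner ratio is a log10 of red over green. The authors' deposited value table holds log2 ratios, by its values (r of 0.936 to 0.975 with the scanner ratio turned to log2); its normalization is not given in the sources used here. Per the labels, the sample carried Cy5 and the pooled reference Cy3 on every array. limma 3.58.1 (R 4.3.3) applied normexp correction (offset 50) and loess within each array. Outlier spots were dropped and replicate spots averaged. Testing required a sample signal well above background on 3 or more arrays of some genotype. Names came from RefSeq (GRCm38.p6) by accession for 18206 tested probes, by current symbol for 4017 and by older symbol for 1906, and 3571 kept the array's own name. A gene was represented by its brightest tested probe, and adjusted p-values of other probes run over all tested probes. A mean per genotype was fitted over all 15 arrays with 11 residual degrees of freedom; all tests were two-sided, with Benjamini-Hochberg adjustment over genes. Precision is set by the number of arrays. The p-values measure the spread between arrays of a genotype.

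Named genes were the 8 members with every probe, Cdkn1b and Stmn1, the other genes of the network list, set examples of targets, and the 5 genes most like Myc and Mycn. The members and lists were chosen with earlier results of these data known. The fit was tested on simulated data. Alternatives covered background, normalization, the authors' table, the sample channel alone, filters, slide and replicate blocks, weights, variance models, choice of arrays, and omission of single arrays. The relations with list means, and their values and those of the gene lists with arrays left out, were chosen after seeing the data.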

Additional observations from a re-analysis of the deposited data

Results flagged for a closer look

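Dixon's test was run on 42 groups of 4 arrays, where chance flags about 1 in 20. It marked 3 arrays as far from the others of their genotype. On 1 Myc probe, wild type 1 was at -0.36, with the nearest array at 0.36. On the brightest Mxd1 probe, p27 knock-out 2 was at 1.15, with the nearest at 0.11. On the dim Mxd1 probe, wild type 2 was at 0.09, with the nearest at -0.09.

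Mycn was marked because the effect of losing p27 ran opposite with and without stathmin, and so did that of losing stathmin with and without p27. On each of the 4 slides p27 knock-out and stathmin knock-out lay below wild type, and on each of the 3 slides with a double knock-out array it lay above both, giving an interaction of 4.02. The difference was not tested, since Mycn was chosen for it.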

How the results depend on the processing

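Under 31 alternatives (15 of them leaving out 1 array), 0 members and 0 listed network genes were called in any of the 6 comparisons; the smallest adjusted p of a member was 0.125 and of a listed network gene 0.0811. Of the members' differences, 755 of 760 under other settings and 717 of 720 with 1 array left out moved by less than the spread between replicates, where a turn of sign was counted as a change for Mycn and for the Mxd1 differences with an unadjusted p under 0.05. Signs turned in 43 and 44 of them. The difference of Mycn between double knock-out and wild type turned from -0.11 to 0.0577 with median centring, 0.0894 with scaling between arrays and 0.10 with wild type 3 and 4 averaged, and ran from -0.35 to 0.10 when 1 array was left out. The Mycn interaction was 4.97 with the scanner ratio, and that of Mxd4 went to 0.23 on arrays with low Xist. Median centring brought the correlations of Mxd1 and of Mxi1 with the induced targets to -0.793 and -0.649, and of Mycn with the repressed targets to -0.802. The cause of these changes was not tested. Same-numbered arrays had residual correlations of -0.323 to 0.427 in 21 pairs, 12 of them over 0.1, and 5 of 15 arrays were closest to their own number, so numbers were not taken as pairs. Same-numbered arrays of wild type and the single knock-outs share a slide, double knock-out 2 and 3 lie on slides 3 and 4, and the labels name no shared litter. With replicate number as a block 0 members were called in every comparison; the genes called went from 1 to 3 in stathmin knock-out against wild type and from 0 to 1 in double knock-out against wild type and against p27 knock-out. With slide as a block they were 2, 1 and 1. The number of arrays and, for the dim Mycn and Mxi1 probes, the signal over background limit what can be seen.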
